A study of Danio rerio with 5 samples.

Results

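The 10 genes described here are fbp2, pgam1a, aldocb, eno1a, pfkpa, pkma, eno3, ldha, ak1 and gapdhs, which code for enzymes of sugar breakdown and of energy-rich phosphate transfer. They were taken by symbol from the 36351 genes of the single-cell feature lists, and all 10 were found there. They were chosen by their levels in these same libraries, on earlier values that put them high together in muscle and mural (vessel-wall) cells, so their levels across cell types are given below as a description and carry no test. The samples were zebrafish larvae 5 days post fertilization, from which cells that express a pdgfrb reporter were sorted by fluorescence. The single_cell group held 2 droplet libraries made with the 10x Genomics 3' version 3 kit from Tg(pdgfrb:egfp)ncv22 larvae, and the um148_bulk group held 3 oligo-dT primed bulk libraries from larvae with Tg(pdgfrb:citrine)s1010 and the mutant allele um148, which the strain label writes as an allele of pdgfb. All 5 libraries share the reporter sort, and the number of larvae behind each is not given in the sources used here, so the spread between libraries may be technical.

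Glycolysis splits glucose into pyruvate and yields ATP without oxygen, and lactate dehydrogenase then turns pyruvate into lactate so that the pathway can go on. Vertebrates carry several gene copies for most steps, and muscle, liver and brain are each known for copies of their own. Skeletal muscle relies on glycolysis and on phosphate transfer for short bursts of work, and vascular smooth muscle and pericytes, the contractile cells around vessels, are known to form lactate even where oxygen is present.

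In order of the pathway, pfkpa (LL0000021641) codes for a phosphofructokinase subunit, the committed step, and fbp2 (LL0000010175) codes for a fructose bisphosphatase, which runs that step backwards and is the muscle form in mammals. The gene aldocb (LL0000000886) codes for an aldolase, gapdhs (LL0000011139) for a glyceraldehyde 3-phosphate dehydrogenase and pgam1a (LL0000021646) for a phosphoglycerate mutase. Both eno1a (LL0000009647) and eno3 (LL0000009650) code for enolases, and ENO3 is the muscle form in mammals. The last steps are pyruvate kinase, from pkma (LL0000022026), and lactate dehydrogenase, from ldha (LL0000013579). The gene ak1 (LL0000000522) codes for an adenylate kinase, which interconverts ATP, ADP and AMP and is no glycolytic enzyme.

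Library 1 held 12121 barcodes and 70247500 UMIs (counted molecules), library 2 held 10182 barcodes and 77896721 UMIs. After filters on detected genes, mitochondrial share and doublets, 5653 cells (46.6%) were kept in library 1 and 7358 (72.3%) in library 2, with medians of 5638 and 5996 UMIs. Too high a mitochondrial share was met by 3976 barcodes in the first library but by 407 in the second, and 30 barcodes occurred in both libraries, 11 of them among those that passed the gene and mitochondrial limits. Clustering gave 70 clusters, and markers named 18 classes, among them skeletal-muscle-like, smooth-muscle-like and pericyte-like cells, along with classes such as hepatocyte-like and acinar-like cells that are not mural. The 10 genes and the other energy metabolism genes counted below were left out of the genes used for clustering, 124 in all.

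In the named classes the name muscle and mural cells does not hold for the 10 genes as a set. A gene is called raised in a class here when its level, in CPM (counts scaled to a common total of UMIs) with 5 added, was at least 2 times that of all other kept cells in both libraries, and lowered when it was at most the inverse of that. No skeletal-muscle-like, smooth-muscle-like or pericyte-like class raised all 10 genes: 3, 0 and 0 of them were raised there. All 10 were raised in a single unnamed cluster of 24 cells, 8 in library 1 and 16 in library 2, which is 0.142% of the kept cells (exact binomial 95% interval 0.0611 to 0.279) and 0.217% (0.124 to 0.353). That cluster was picked out because at least 5 of its 10 genes of highest fold were among the 10 described here, so the count follows from the choice. Of the 6584 genes at 10 CPM or more over all kept cells of both libraries, 2.41% were raised in it and 33.4% lowered, and none of the 10 was lowered. At that level 9 of the 10 genes pass, all but pfkpa.

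In the 24-cell cluster the 10 genes together took 17.4% of all UMIs in library 1 and 18.9% in library 2, against 0.136% and 0.115% in the other kept cells. The phosphofructokinase gene pfkpa stood at 1345 and 1568 CPM in libraries 1 and 2, and its reverse enzyme gene fbp2 at 48408 and 48427 CPM. In all other kept cells pfkpa stood at 7.08 and 4.33 CPM and fbp2 at 84.8 and 8.05 CPM. Both genes of the opposed pair were thus high in the same cells.

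Further down the pathway, aldocb stood at 9698 and 11687 CPM in the cluster, gapdhs at 24154 and 26513 CPM and pgam1a at 19365 and 20610 CPM. The enolase genes stood at 14506 and 14737 CPM (eno1a) and at 19747 and 21701 CPM (eno3). The libraries differed by less than 1.5 times for each of these genes. At the end of the pathway pkma stood at 5742 and 8089 CPM and ldha at 5431 and 6290 CPM, and ak1, outside the pathway, stood at 25439 and 29224 CPM. Against all other kept cells, the log2 fold of the 10 genes ranged from 5.84 (gapdhs) to 9.07 (fbp2) in library 1 and from 6.12 (gapdhs) to 11.86 (fbp2) in library 2. The median log2 fold of the 10 was 7.06 over both libraries, and that of all 6584 genes was -0.96.

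**Figure D1:**
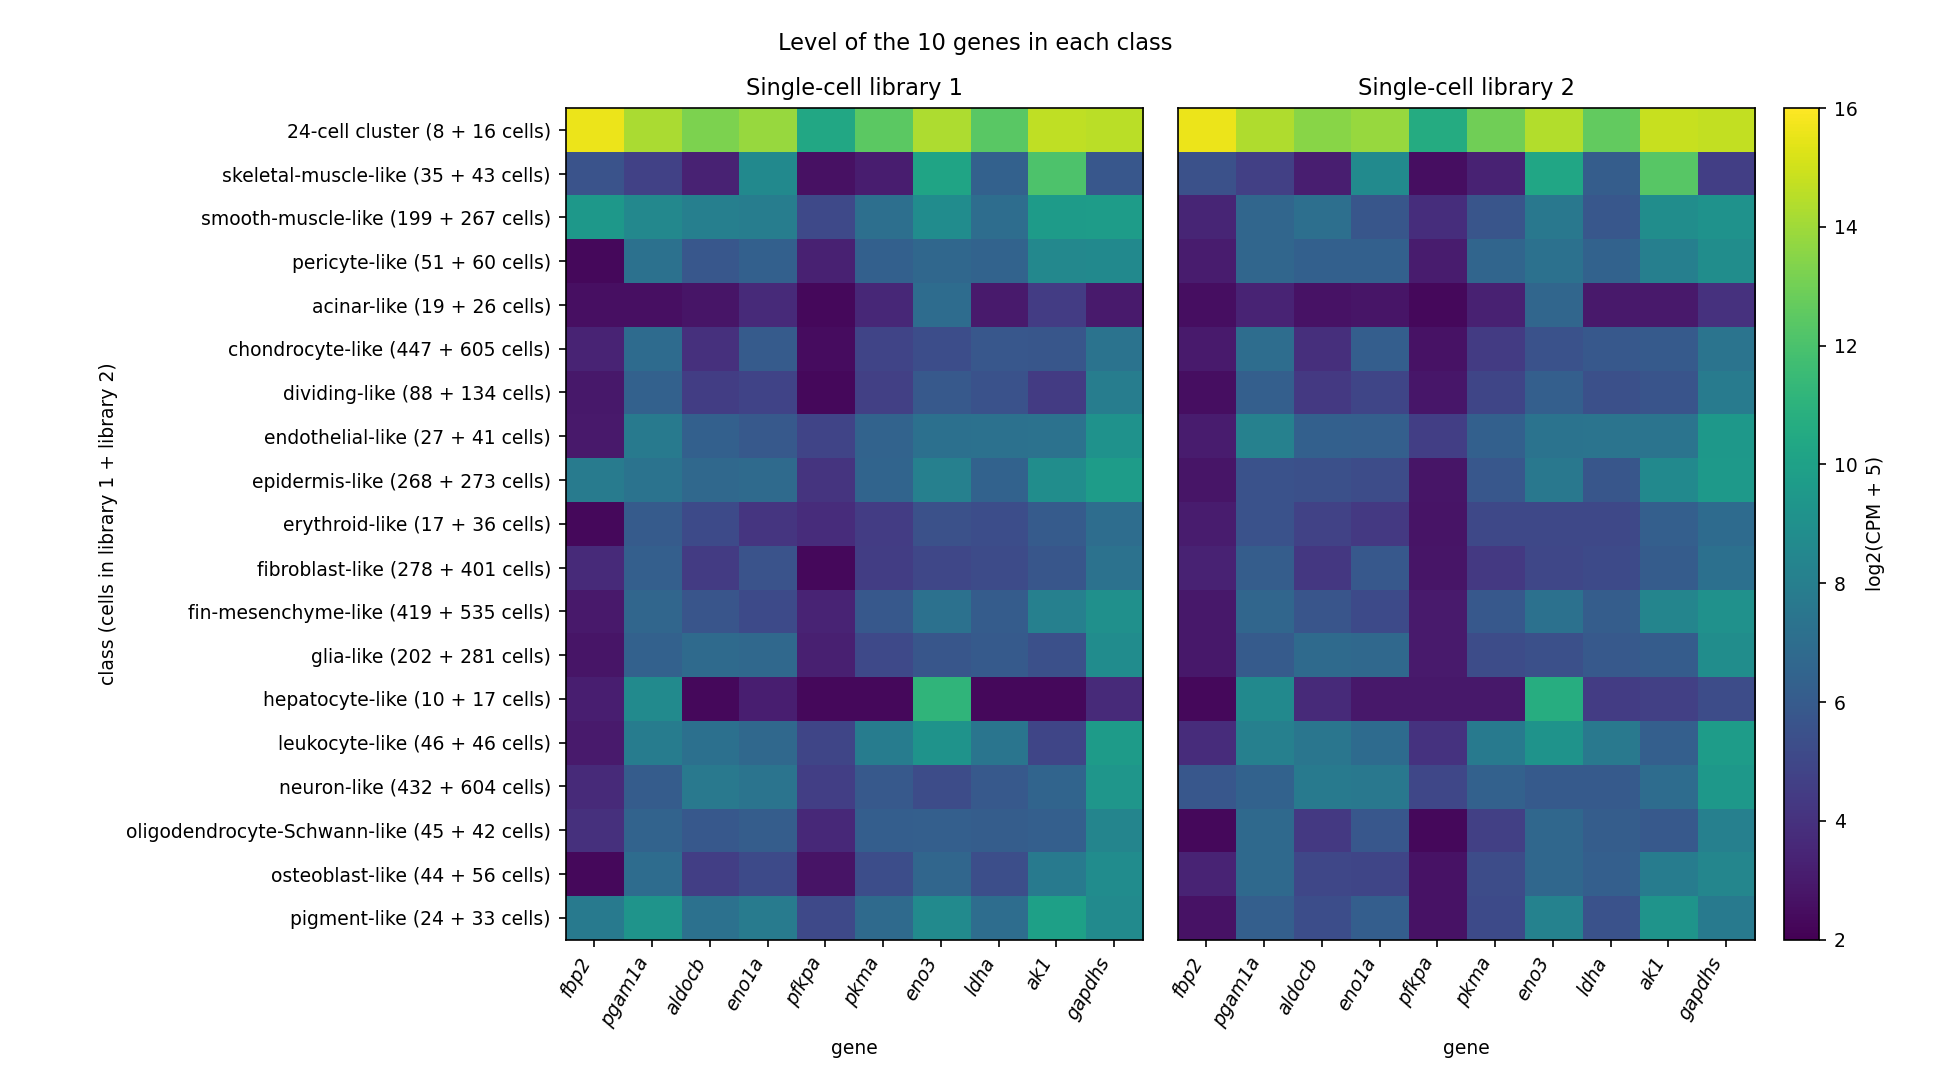
Levels of the 10 genes, as log2(CPM + 5), in the 24-cell cluster and the 18 named classes, 1 panel for each single-cell library, with columns for genes and rows for classes. The top row is the brightest for every gene in both panels, while the skeletal-muscle-like row is bright for ak1, eno3 and eno1a, and fbp2 in the smooth-muscle-like row differs between the panels (708 and 5.78 CPM).

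The cells of the cluster were alike in this. Over its 8 cells of library 1 the share of UMIs from the 10 genes ran from 8.07% through a median of 18.6% to 22.8%, and over its 16 cells of library 2 from 9.41% through 19.0% to 28.5%. The median share in the other kept cells was 0.0633% and 0.0640%. Each of the 24 cells held at least 1 UMI of all 10 genes. After each cell was thinned to 1000 UMIs, the median cell of the cluster still held 10 of the 10 genes in both libraries and the poorest held 9, while the median skeletal-muscle-like cell held 2 and the median smooth-muscle-like or pericyte-like cell held 1 in both libraries.

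**Figure D2:**
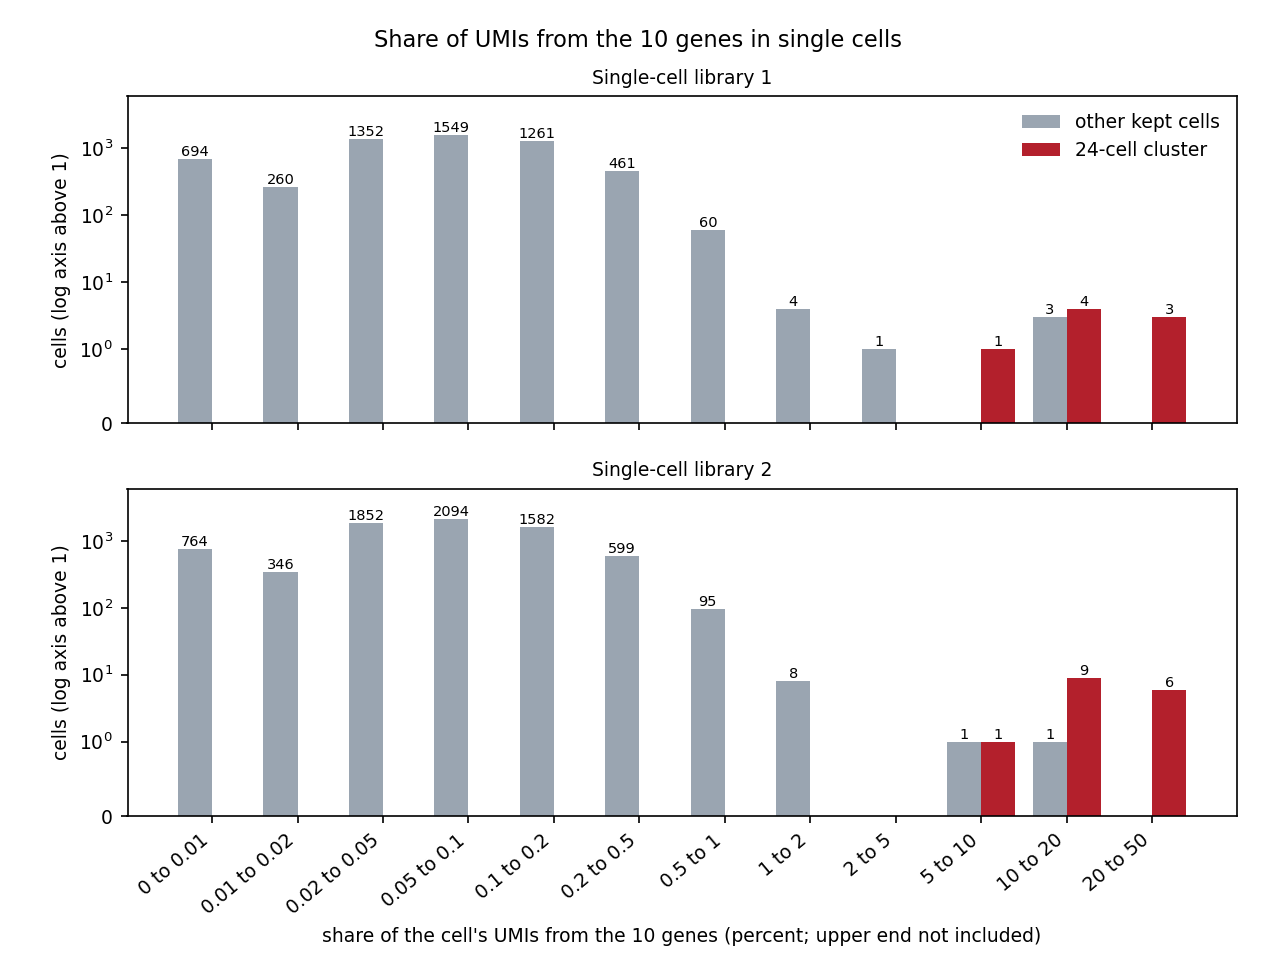
Number of kept cells (vertical axis, logarithmic above 1) by the share of a cell's UMIs that came from the 10 genes (horizontal axis, in percent), for each single-cell library, with the 24-cell cluster in red and all other kept cells in grey. A gap lies between the bulk of the cells and the red bars: from 2% to 5% there was 1 kept cell in library 1 and none in library 2.

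Levels in single cells were set beside those of the other kept cells in which the 10 genes took under 5% of UMIs, a limit that itself removes cells high in these genes. The level of fbp2 in a single cell of the cluster ran from 9943 through 51203 to 73630 CPM in library 1 and from 22302 through 49952 to 77770 CPM in library 2, and the highest of the others stood at 3518 and 2313 CPM. The 5 kept cells of at least 5% outside the cluster stood at 53618, 36808 and 29664 CPM in library 1 and at 30864 and 6657 CPM in library 2, so 4 of the 5 lay within the cluster's range. For ak1 the lowest cell of the cluster, at 10724 and 14971 CPM, stood above the highest such cell elsewhere, at 7817 and 9292 CPM. Against cells under 5%, 9 of the 10 genes had this order in both libraries, which the limit on the share helps to fix. The exception was pfkpa, whose lowest cells in the cluster, at 416 and 211 CPM (6 and 1 UMIs), stood below the highest cells elsewhere, at 634 and 699 CPM.

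**Figure D3:**
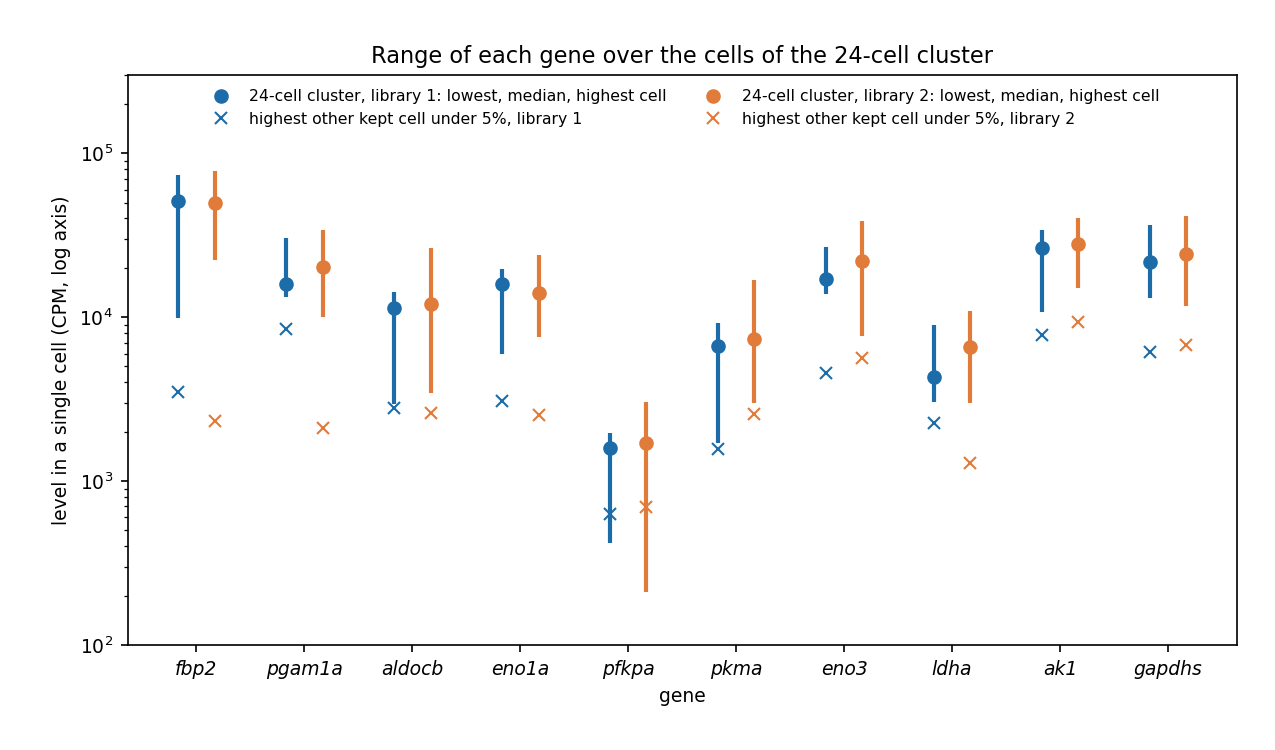
Level of each gene in single cells (CPM, log axis): lines run from the lowest to the highest cell of the 24-cell cluster with a dot at the median, and crosses mark the highest other kept cell among those under 5%, in blue for library 1 and orange for library 2. The cross lies below the line for every gene except pfkpa.

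The 24 cells were checked against the markers of muscle and mural cells. Of 9 smooth-muscle markers, 5 passed the naming rule: acta2 stood at 7158 and 10759 CPM, tagln at 1777 and 4238 CPM and myl9a at 1355 and 1497 CPM, with lmod1b at 221 and 335 CPM and mylka at 271 and 272 CPM. That rule pools both libraries: in library 1 tagln had a log2 fold of only 0.36, with other kept cells at 1383 CPM. The other 4 markers did not pass, and the intermediate filament gene desmb had no UMI in either library, where smooth-muscle-like cells had 4382 and 4609 CPM. Summed over the 9, the level was 11013 and 17351 CPM in the cluster and 64489 and 62297 CPM in smooth-muscle-like cells. Of 7 pericyte markers 1 passed, cd248a, and the channel genes abcc9 and kcnj8 had no UMI, where 3 counts would be 30.1 and 11.2 CPM. None of 12 skeletal-muscle markers passed: their sum was 120 and 175 CPM, against 142880 and 152276 CPM in skeletal-muscle-like cells. All 7 cardiac and all 8 leukocyte markers had no UMI. In the second round of clustering the 24 cells were split from the same first-round cluster as all pericyte-like cells. The cluster is given no cell type name here.

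Library traits moved with the cluster as well. Its cells had medians of 10232 and 14766 UMIs, against 3798 and 4047 in the other cells of the first-round cluster it was split from. Their median doublet score was 0.5 and 0.567, against 0.367 and 0.333 over all kept cells, and the highest score among kept cells was 0.833. The part of depth and of doublets in the high levels was not tested.

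The rest of the pathway was high in the same 24 cells, though not as whole gene families. Of 26 other glycolytic enzyme genes 7 were raised and 6 lowered in the cluster. Raised at least 4-fold were 5 of them, among them genes for the steps that the 10 genes leave out. For these steps they were the hexokinase gene hk1 (432 and 629 CPM) and the glucose phosphate isomerase gene gpia (2138 and 3005 CPM). The triose phosphate isomerase gene tpi1b (10501 and 11497 CPM) and the phosphoglycerate kinase gene pgk1 (3574 and 4205 CPM) were raised as well. With them each step from glucose to lactate had at least 1 gene raised 4-fold or more.

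Transport genes for both ends of the pathway were raised too. The glucose transporter gene slc2a1b stood at 1546 and 1736 CPM, the lactate transporter gene slc16a3 at 964 and 1114 CPM, and bsg, which codes for the partner that brings such lactate transporters to the membrane, at 1074 and 1557 CPM. They were 1 of 7 glucose transporter genes and 2 of 8 lactate genes raised. Of 8 regulator genes 1 was raised, pfkfb3 (231 and 145 CPM), which codes for a kinase that makes the activator of phosphofructokinase. Of 10 hypoxia response genes 2 were raised, bnip3lb (251 and 302 CPM) and vegfaa (161 and 123 CPM), while 2 were lowered.

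Gene lists off the main path were mostly not raised there, where 2.41% of all genes at 10 CPM or more were raised and 33.4% lowered. Lists with no raised gene thus lie near that share and are no result about their pathways. Of 10 gluconeogenesis genes 1 was raised, fbp1a (191 and 231 CPM), and 3 were lowered, among them pck1 at 10.0 and 3.72 CPM, which codes for a key enzyme of glucose synthesis in liver. None of the 13 listed glycogen genes, none of 11 genes for pyruvate dehydrogenase and its kinases and none of 5 glycerol 3-phosphate dehydrogenase genes were raised. The glycogenin gene gyg1b, which is not on the glycogen list, was high there, at 1144 and 484 CPM (log2 folds of 5.82 and 4.51). It was found in 25% and 62.5% of the cluster's cells, and was named after its values were seen. Of 16 adenylate and creatine kinase genes 2 were raised, ak3 (381 and 477 CPM) and ckba (622 and 674 CPM), and 6 were lowered. The gene gapdh had no UMI in the cluster in either library, where 3 counts would be 30.1 and 11.2 CPM, while the other copy, gapdhs, stood at 24154 and 26513 CPM.

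Outside these lists, the genes of highest fold in the cluster were led by cnn1a (351 and 480 CPM), a calponin gene, si:ch211-160j14.2 (281 and 350 CPM), pthlha (291 and 290.5 CPM), which codes for a parathyroid hormone-like peptide, and hoxc8a (552 and 499 CPM), a homeobox gene. They were read off after their values were seen. The fibronectin gene fn1b stood at 3162 and 3441 CPM, the transcription factor gene foxf1 at 311 and 246 CPM, and the activin subunit gene inhbaa at 924 and 1613 CPM.

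**Figure D4:**
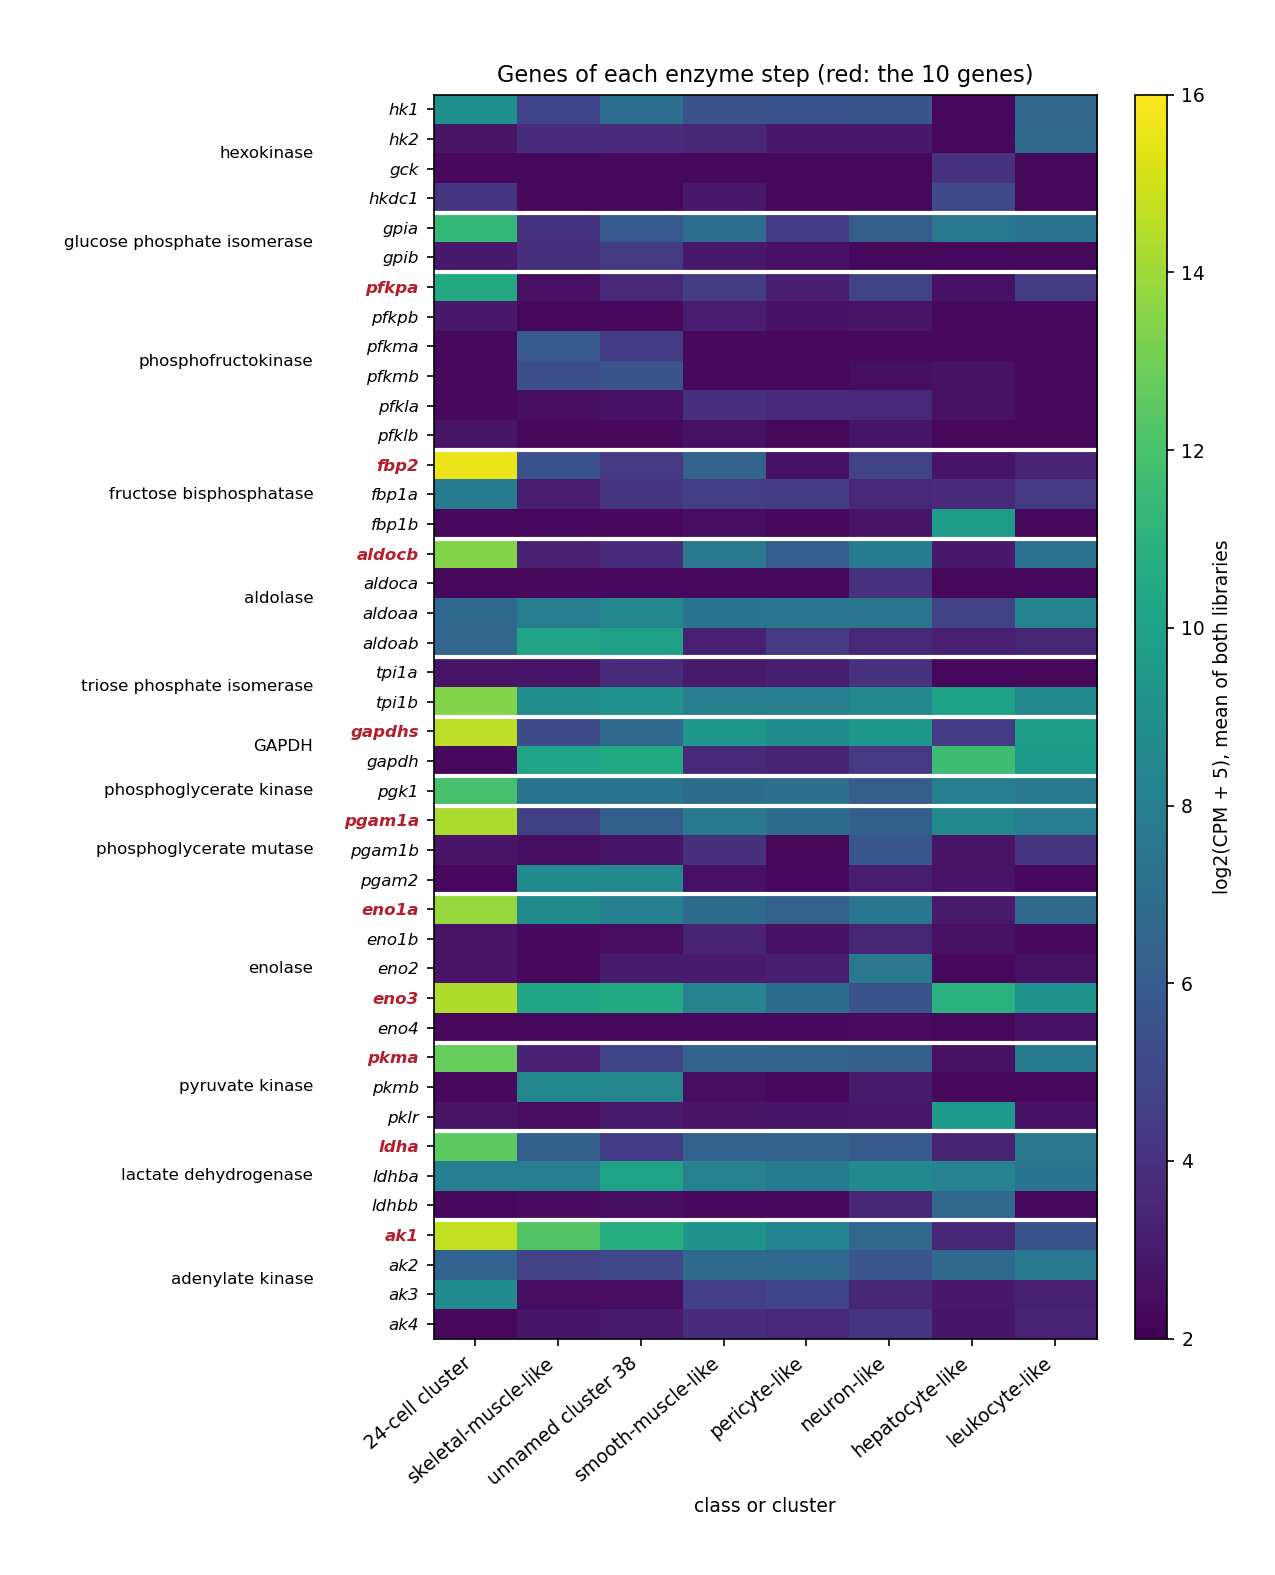
Levels, as log2(CPM + 5) averaged over both libraries, of the gene copies for each enzyme step (rows, the 10 genes in red) in the 24-cell cluster and 7 other classes or clusters (columns). Read along the rows, skeletal-muscle-like cells are bright for aldoab, gapdh, pgam2 and pkmb and dark for pfkpa, aldocb and pkma. The smooth-muscle-like value of fbp2 rests on 1 cell of library 1.

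Skeletal-muscle-like cells (35 in library 1 and 43 in library 2) raised 3 of the 10 genes, where 4.39% of all genes at 10 CPM or more were raised. The adenylate kinase gene ak1 stood at 4417 and 5214 CPM, with log2 folds of 3.99 and 3.96. The muscle enolase gene eno3 stood at 1164 and 1229 CPM (2.49 and 2.39), and eno1a at 399 and 412 CPM (1.78 and 1.68). For these genes both libraries were close, and ak1 and eno3 were found in every cell of the class.

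By the same rule 6 of the 10 were lowered in skeletal-muscle-like cells, where 49.4% of all genes were. The aldolase gene aldocb stood at 4.96 and 4.13 CPM, pkma at 3.72 and 4.95 CPM, pgam1a at 21.1 and 19.8 CPM and gapdhs at 50.8 and 19.0 CPM. These 4 stayed lowered when cells with at least 5% of UMIs from the 10 genes were left out everywhere, with log2 folds from -4.00 to -1.85. The remaining pair did not: pfkpa, at 1.24 and 0.826 CPM, then had a log2 fold of -0.67 in both libraries, and fbp2 turned from lowered to raised. The level of fbp2 in skeletal muscle was 42.1 and 39.6 CPM (34 and 48 UMIs) in either case. All kept cells under 5%, skeletal-muscle-like cells included, stood at 7.13 and 4.82 CPM. Against the others of these cells, skeletal-muscle-like cells had log2 folds of 2.03 and 2.29.

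Skeletal muscle expressed other copies of the same steps. Of the 26 other glycolytic enzyme genes 7 were raised and 3 lowered, and 6 were raised at least 4-fold: aldoab (1108 and 1162 CPM), gapdh (1267 and 1025 CPM), pgam2 (437 and 418 CPM), pkmb (359 and 327 CPM), pfkma (53.3 and 54.5 CPM) and pfkmb (37.2 and 35.5 CPM). For aldolase, glyceraldehyde 3-phosphate dehydrogenase, phosphoglycerate mutase and pyruvate kinase, the copy among the 10 genes was thus lowered and another copy raised in the same cells. Of all genes at 10 CPM or more, 49.4% were lowered and 4.39% raised in skeletal-muscle-like cells. In the 24-cell cluster pgam2 and pkmb, like gapdh, had no UMI.

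Glycogen and phosphate transfer genes went with these muscle copies. Of 13 glycogen genes 4 were raised in skeletal-muscle-like cells, 3 of them at least 4-fold: the glycogen phosphorylase genes pygma (120 and 94.97 CPM) and pygmb (54.5 and 52.0 CPM), and ugp2a (81.8 and 71.8 CPM), whose enzyme makes UDP-glucose. Of 16 adenylate and creatine kinase genes 5 were raised, 4 at least 4-fold: the creatine kinase genes ckma (7492 and 8294 CPM), ckmb (6342 and 6914 CPM) and ckmt2b (429 and 432 CPM), and the AMP deaminase gene ampd1 (136 and 148 CPM). Of the 11 genes for pyruvate dehydrogenase and its kinases, counted as 1 list, 4 were raised and none of them 4-fold. None of the lactate, glucose transporter or hypoxia lists had a raised gene.

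A second muscle-type cluster, unnamed cluster 38, held 22 and 45 cells and was led by slow-muscle genes such as smyhc1, smyhc2 and tnnc1b. It raised 2 of the 10 genes, eno3 (1453 and 1438 CPM) and ak1 (1588 and 1761 CPM), where 5.76% of all genes were raised. The level of eno1a was 291 and 232 CPM, with log2 folds of 1.28 and 0.82, and aldocb was at 8.46 and 9.46 CPM. Of the 26 other glycolytic genes 10 were raised there, with aldoab, gapdh, pgam2, pkmb and pfkmb at least 4-fold, as in skeletal-muscle-like cells.

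Smooth-muscle-like cells (199 and 267 cells) raised none of the 10 genes and lowered none, where 4.69% and 11.5% of all genes were raised and lowered. In library 1 alone 8 of the 10 passed, and in library 2 alone none. The class held 1 cell of library 1 in which the 10 genes took 12.6% of 33525 UMIs, 1234 of the class's 1247 fbp2 UMIs there. With that cell fbp2 stood at 708 CPM in library 1 and 5.78 CPM in library 2, and without it at 7.53 CPM in library 1. With all cells of at least 5% left out, aldocb was raised in both libraries, at 140 and 132 CPM (log2 folds of 1.47 and 1.43), and 1 of the 10 genes passed. The other genes then had log2 folds between -0.42 and 1.04: pfkpa reached 1.04 in library 1 and 0.69 in library 2, ak1 0.79 and 0.67 (430 and 466 CPM), and gapdhs 0.54 and 0.58 (551 and 551 CPM).

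Of the other glycolytic genes 1 was raised in smooth-muscle-like cells, gpia (160 and 106 CPM, the first value with that cell), and 5 were lowered, among them the muscle copies aldoab, gapdh, pgam2 and pkmb. The brain-type creatine kinase genes ckba (769 and 823 CPM) and ckbb (997 and 912 CPM) were raised at least 4-fold, with log2 folds from 2.85 to 3.96. No other list had a gene raised 4-fold there.

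Pericyte-like cells (51 and 60 cells) raised none of the 10 genes and lowered fbp2, where 3.84% and 11.6% of all genes were raised and lowered. For fbp2 there was no UMI in library 1 (exact Poisson 95% upper bound 16.9 CPM) and 1 UMI in library 2 (3.36 CPM, 0.0850 to 18.7). With the cells of at least 5% left out its log2 fold was -1.28 and -0.23, so fbp2 was then not lowered by the rule. The pyruvate kinase gene pkma stood at 73.3 and 90.7 CPM, with log2 folds of 0.77 and 1.05 without those cells, and ldha at 82.5 and 80.6 CPM (0.55 and 0.54). Of the other glycolytic genes none were raised and 8 were lowered. The single gene of all lists raised at least 4-fold was ndufa4l2a (403 and 259 CPM), which codes for a respiratory chain subunit induced by low oxygen. Pericyte-like cells held 218200 and 297700 UMIs, the fewest of the 3 muscle and mural classes, so 3 counts there stand for 13.7 and 10.1 CPM.

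Other classes raised parts of the set. Hepatocyte-like cells (10 and 17 cells) raised eno3 (2277 and 1681 CPM) and pgam1a (413 and 403 CPM) and lowered the other 8, where 5.71% and 45.0% of all genes were raised and lowered. With cells of at least 5% of UMIs from the 10 genes left out everywhere, they did not lower fbp2 (log2 folds of -0.44 and -0.98). Nor was pfkpa (-0.98 and -0.30) then lowered there. Leukocyte-like cells (46 and 46) raised pkma (230.0 and 202 CPM), eno3 (572 and 581 CPM) and ldha (171 and 194 CPM), where 5.92% of all genes were raised. They lowered fbp2 and ak1, where 33.7% of all genes were lowered. With cells of at least 5% of UMIs from the 10 genes left out everywhere, leukocyte-like cells also raised pgam1a, aldocb and gapdhs. Their log2 folds were then 1.38 and 1.59, 1.37 and 1.76, and 1.09 and 1.16, and fbp2 (-0.58 and 0.49) was not lowered. Leukocyte-like cells raised more of the 10 in that setting than skeletal-muscle-like, smooth-muscle-like or pericyte-like cells did. No share of all genes raised is given for that setting, so this order may not be particular to the 10 genes. Neuron-like cells (432 and 604) raised aldocb (196 and 211 CPM) and lowered 4 of the 10, where 14.8% and 29.9% of all genes were raised and lowered. Without cells of at least 5%, neuron-like cells raised aldocb (log2 folds of 1.98 and 2.03), eno1a (1.32 and 1.43) and pfkpa (1.35 and 1.79). Of the 4 lowered genes, fbp2 (0.07 and 0.20) and pgam1a (-0.47 and -0.43) were then not lowered. The unnamed clusters 36, 50 and 51 each raised 4 of the 10: all 3 raised aldocb, pfkpa and gapdhs, with eno1a in clusters 36 and 50 and ldha in cluster 51. The shares of all genes raised there were 12.9%, 11.2% and 10%. All 3 clusters also lowered fbp2, eno3 and ak1, and cluster 50 lowered pgam1a and ldha as well. No share of all genes lowered was computed for these clusters. Their folds without the cells of at least 5% are not given either, and those cells held nearly all fbp2 UMIs.

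With all kept cells in, the other 12 named classes raised none of the 10. The shares of all genes raised there were 1.97% in acinar-like, 3.39% in chondrocyte-like, 4.15% in dividing-like, 6.38% in endothelial-like, 4.71% in epidermis-like and 2.83% in erythroid-like cells. They were 4.42% in fibroblast-like, 5.36% in fin-mesenchyme-like, 11% in glia-like, 4.19% in oligodendrocyte-Schwann-like, 1.7% in osteoblast-like and 5.74% in pigment-like cells. Some of these classes raised genes once the cells of at least 5% were left out everywhere. Endothelial-like cells then raised pgam1a (log2 folds of 1.26 and 1.70), pfkpa (1.56 and 1.44) and ldha (1.32 and 1.54). Epidermis-like cells then raised gapdhs (1.21 and 1.19), glia-like cells aldocb (1.15 and 1.17) and pigment-like cells ak1 (1.99 and 1.03). No share of all genes is given for that setting. With all kept cells in, fibroblast-like cells lowered all 10 genes, where 11.6% of all genes were lowered. Epidermis-like cells lowered none, where 14.7% were. Without the cells of at least 5%, fibroblast-like cells no longer lowered fbp2 (log2 folds of 0.07 and 0.05) or pgam1a (-0.30 and -0.41). Nor were eno1a (-0.60 and -0.34), ldha (-0.70 and -0.74) and pfkpa (-0.44 in library 2) then lowered by the rule. The other genes stayed lowered there in both libraries.

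Ordered by level with the cells of at least 5% left out, the 10 genes had different leading classes. Pigment-like cells held 1 cell of library 1 with a share of 3.07%, and their libraries differed most, with pgam1a at 603 and 70.4 CPM and fbp2 at 213 and 1.53 CPM, so they are left out of the order except for ak1. For ak1 skeletal-muscle-like cells led, and pigment-like cells came next at 997 and 609.5 CPM. For eno1a skeletal-muscle-like cells led and neuron-like cells, at 165 and 178 CPM, came next. Leukocyte-like cells led for pkma and ldha, and for ldha endothelial-like cells, at 142 and 163 CPM, were close behind. For gapdhs leukocyte-like cells (814 and 833 CPM) led, followed by epidermis-like cells (759 and 760 CPM). Neuron-like cells (657 and 677 CPM) and endothelial-like cells (567 and 698 CPM) came after them, in an order that differed between the libraries. Neuron-like cells led for aldocb at 196 and 197 CPM, ahead of leukocyte-like cells at 137 and 176 CPM and smooth-muscle-like cells at 140 and 132 CPM. Hepatocyte-like cells led for eno3 and pgam1a. Acinar-like or hepatocyte-like cells were lowest for pgam1a, aldocb, eno1a, pkma, ldha, ak1 and gapdhs, several of them with no UMI, where 3 counts stand for 11.9 and 7.51 CPM in hepatocyte-like cells.

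Cells with a high share were few, and nearly all fbp2 counts came from them. Of 22303 barcodes, 34 had at least 5% of their UMIs from the 10 genes, 6 had 2% to 5%, 32 had 1% to 2% and 22231 had under 1%. The 5% limit was set after the shares had been seen, and the kept cells nearest to it had 5.83% above and 3.07% below. The 24 cells of the cluster were among the 34, and 5 more were kept in other groups: 1 each in smooth-muscle-like (12.6%), epidermis-like (11.2%) and neuron-like (10.9%) cells and in the unnamed clusters 45 (16.9%) and 8 (5.83%). All 5 held all 10 genes. Kept cells of at least 5% held 96.2% and 97.7% of the fbp2 UMIs of kept cells in libraries 1 and 2, but only 26.8% and 29.8% of those of ak1 and 18.3% and 23.6% of those of gapdhs. The 24-cell cluster itself held 54.8% and 96.2% of the fbp2 UMIs.

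The genes whose profile was most like that of the 10, over the 18 named classes in both libraries, were led by rgs19 (mean Pearson correlation 0.57 with the 10 genes, lowest 0.015), eif4g2a (0.55), capza1a (0.55), ppp1r12a (0.54) and hk1 (0.53). They were followed by capza1b, aldoaa, slc16a3, kpna3 and hif1ab, down to 0.52. The classes of a library share its preparation and depth, and the values are weak. The mean correlation of each of the 10 genes with the other 9 ran from 0.083 (eno3) to 0.56 (ldha). When the 24-cell cluster was added as a class, and the other cells of at least 5% left out, slc16a3 (0.81), pgk1 (0.77), hk1 (0.74) and tpi1b (0.74) led, so those values rest on that cluster.

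The um148 libraries measured sorted cells in bulk, so fewer cells of a type and less RNA per cell cannot be told apart there. Of the 10 genes 9 were listed in the authors' table of 17540 genes, and fbp2 was not in it. The lowest mean um148 level listed was 15.03 normalized counts, in the authors' deposited table. The lactate dehydrogenase gene ldha had 597, 615 and 591 normalized counts in libraries 1, 2 and 3 (601 ± 12.4, SD, n = 3), and ak1 had 1599, 1673 and 1480 (1584 ± 97.7, SD, n = 3). These were the steadiest of the 9.

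The enzymes of the middle of the pathway varied more. The level of gapdhs was 4480, 5596 and 4044 normalized counts (4707 ± 800.5, SD, n = 3), that of pgam1a was 355, 504 and 427 (429 ± 74.6), that of aldocb was 1071, 1790 and 1027 (1296 ± 428), and that of eno1a was 1489, 2469 and 1865 (1941 ± 494). Library 2 was highest for each of the 9 genes. The widest spread was that of pfkpa, at 117, 211 and 28.7 (119 ± 91.0), followed by pkma at 676, 1151 and 341 (723 ± 407) and eno3 at 1111, 1625 and 605 (1114 ± 510). Library 3 was lowest for these 3 and library 2 highest, with highest-to-lowest ratios of 7.33, 3.38 and 2.69. The order was not particular to them: gapdhs, aldocb, ldha and ak1 had it too, while pgam1a and eno1a were lowest in library 1.

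Of 23 marker sets 8 had the same order of libraries in their summed level: the skeletal-muscle, cardiac-muscle, osteoblast, fin-mesenchyme, neuron, glia, erythroid and dividing sets. The 10 listed skeletal-muscle markers summed to 9087, 15656 and 2731 normalized counts in libraries 1, 2 and 3, and the 8 listed glia markers to 8325, 8894 and 7860. That of 8 listed smooth-muscle markers was 12206, 12418 and 15131, and that of the 7 pericyte markers 21557, 25413 and 35548, highest in library 3. The part of other cell types in the spread of pfkpa, pkma and eno3 was not tested. Over all 9 genes the median SD of log2(normalized count + 1) was 0.37, and that of all genes of the table was 0.37. Without um148 library 2 the value of the 9 genes was 0.19, with no value of all genes given to set beside it.

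The authors compared these libraries with wild-type cells, whose columns were not used here. Of the 9 genes in the authors' deposited table, a single gene was called at an adjusted p under 0.05, where 5.13% of 16853 genes were called lower in um148 and 6.18% higher. It was pgam1a, with a log2 fold change of -0.83 and an adjusted p of 0.0456 in the authors' deposited table. Leaving out each um148 library in turn moved its log2 ratio between -0.96 and -0.71. Such ratios shift the deposited value by the change in the um148 mean and hold the wild-type side fixed. The authors' comparison was not rerun. The other 8 genes in the authors' deposited table had log2 fold changes from -0.60 (gapdhs, adjusted p 0.199) to 0.69 (aldocb, adjusted p 0.142), with pkma at 0.45, pfkpa at 0.43, eno1a at 0.28, ldha at -0.25, ak1 at -0.14 and eno3 at -0.10. In the authors' deposited table, 5 of the 9 values were below 0 and 4 above, with a median of -0.10, and the median of all its genes was 0.02. The sign for pfkpa and pkma rested on um148 library 2: without it their log2 ratios were -0.27 and -0.06. That for eno3 rested on library 3: without it the log2 ratio was 0.20.

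**Figure D5:**
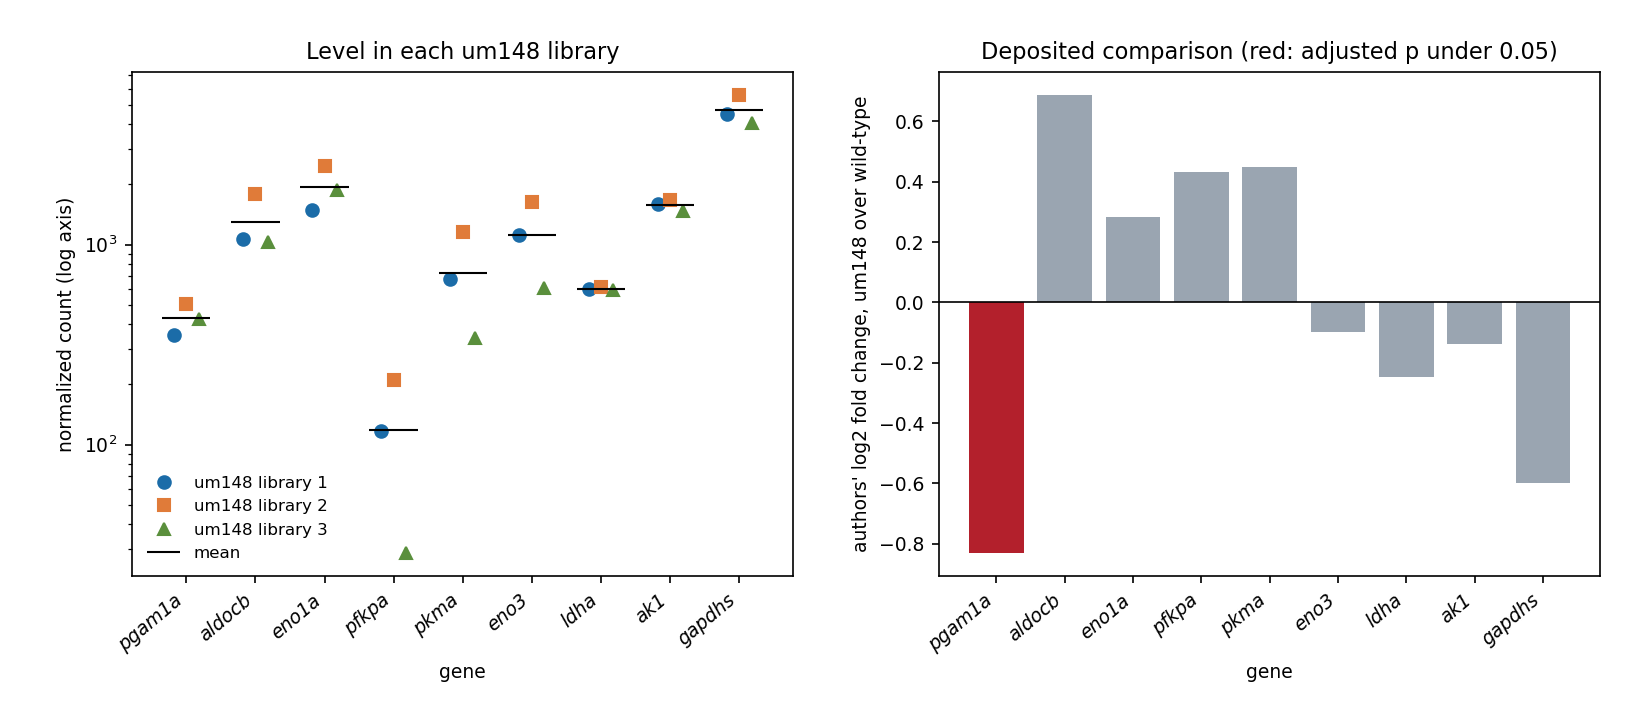
Left, normalized counts (log axis) of the 9 listed genes in um148 libraries 1 to 3, with a line at the mean; right, the authors' log2 fold change of um148 over wild-type for each gene, in red where the adjusted p was under 0.05. Library 2 is highest for every gene on the left, and pgam1a (-0.83) is the single red bar on the right.

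Of the other glycolytic genes 19 were listed in the authors' deposited table and 1 was called, aldoab, the copy high in skeletal muscle, which was higher in um148 with a log2 fold change of 1.12 (adjusted p 0.0165). Its normalized counts were 467, 641 and 336 in libraries 1, 2 and 3, the order of the skeletal-muscle markers, whose median log2 fold change in the authors' deposited table was 0.55, and the part of muscle cells in this call was not tested. The median of the listed glycolytic genes' log2 fold changes in the authors' deposited table was 0.07. The phosphoglycerate kinase gene pgk1, high in the 24-cell cluster, had -0.76 (adjusted p 0.0688) in the authors' deposited table. The regulator genes pfkfb3 (-1.93, adjusted p 1.95e-06) and tigarb (-1.17, adjusted p 0.0302) were called lower in the authors' deposited table, 2 of 7 listed. None of the lists of lactate genes, glucose transporters, and pyruvate dehydrogenase with its kinases had a called gene in the authors' deposited table.

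In the remaining lists of the authors' deposited table, pcxa (2.30, adjusted p 6.04e-10), which codes for pyruvate carboxylase, and gpd2 (1.92, adjusted p 0.000334), the mitochondrial glycerol 3-phosphate dehydrogenase gene, were called higher. So were pygmb (1.12, adjusted p 0.0260), ampd3a (1.45, adjusted p 0.0387) and the creatine kinase gene ckmt2a (1.61, adjusted p 0.0439) in the authors' deposited table. Of 7 listed hypoxia response genes 3 were called lower in the authors' deposited table: igfbp1a (-2.21, adjusted p 0.000271), ndufa4l2a (-1.73, adjusted p 0.000197), the gene raised in pericyte-like cells, and vegfaa (-1.12, adjusted p 0.00505). For ckmt2a, library 2 held 2310 normalized counts and libraries 1 and 3 held 402 and 526.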

How the data were processed

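Per the submitters' processing notes, reads were handled with CASAVA 1.8.2, STAR, RSEM, DESeq2 and Cell Ranger 3.1.0 on the GRCz11 build; the roles of these tools are not stated there. The authors deposited UMI counts per gene and barcode for the 2 single-cell libraries. For the bulk libraries the deposited values are normalized counts per gene (a signal, whose scaling is not given in the sources used here), with the authors' log2 fold change, its linear ratio, a test statistic (a score), raw and adjusted p-values and a −log10 of them. The direction of the deposited log2 fold change was read from the values: read as um148 over wild-type, the implied total of the wild-type means is 2.03e+07, near the um148 mean of 1.92e+07, while the reverse reading gives 9.19e+07. The table holds 3 columns of other samples, which were not used, so no test of genotype was made.

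Barcodes with at least 500 genes and at most 10% of UMIs from 13 mitochondrial genes were scored for doublets against simulated ones, and the top 0.8% per 1000 barcodes were removed. Counts were scaled to 10000 per cell and logged, and 2000 variable genes, 50 components, 20 neighbours and Leiden clustering at resolution 1 were used. A second round covered unnamed clusters of at least 100 cells in which at least 1 marker set met the 60% and 3-marker limits given next. A class was named where at least 60% and at least 3 of its markers were 2-fold higher in at least 10% of cells, 1 or more of them among its top 10 genes. Counts were summed per class and library, so each library is 1 value and intervals cover counting error only. Tools were Python 3.11.15, scikit-learn 1.9.0 and leidenalg 0.10.2; the raise rule was tested on simulated data. Named genes were the 10 members, listed genes raised 4-fold in muscle or mural classes or called by the authors, and the 10 of most similar profile. The members and lists were chosen with earlier results of these data known. Other genes were named after their values were seen. Values of 1 listed gene are not reported here. Reads of near-identical gene copies could not be checked. Alternatives covered filters, resolution, pseudocount, fold and left-out libraries.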

Additional observations from a re-analysis of the deposited data

Results flagged for a closer look

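Barcodes that the filters removed held the same signal. In library 1 a single removed barcode with at least 5% of its UMIs from the 10 genes held 1825 fbp2 UMIs, and in library 2 4 such barcodes held 5651, although none of them enters the comparisons above. Of these 5 barcodes 4 were removed as doublets and 1 by the gene or mitochondrial limit. The doublets of library 2 held 44118, 79117 and 93848 UMIs and that of library 1 32320, with shares from 5.12% to 17.5%. What these barcodes hold was not tested.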

How the results depend on the processing

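Of 78 values recomputed for the main comparisons 73 kept their side and 5 moved, and none of 47 single-gene values crossed its threshold, although the log2 ratios of pfkpa, pkma and eno3, which the authors did not call, changed sign without 1 um148 library. Both tallies include values of the 24-cell cluster, which under each clustering alternative was picked again by its genes of highest fold. That those values stayed in place thus follows largely from the choice. The count of raised genes in smooth-muscle-like cells ran from 0 without single-cell library 1 to 8 without library 2, and was 1 with cells of at least 5% left out everywhere; that setting and the choice of the 24-cell cluster came after the data were seen. Thinned to 2000 UMIs, the median number of genes met was 2 in smooth-muscle-like and 2 in pericyte-like cells. At an adjusted p under 0.01, 0 of the genes were called by the authors' table. The 24 cells stayed together under each clustering alternative, in clusters from 8 and 16 cells in libraries 1 and 2 up to 163 and 196 cells with 1 round of clustering. With 1 round no class was named pericyte-like, so that count has no value there. No paired analysis was possible because the um148 and single-cell libraries are not compared with each other. Depth limits the 24-cell cluster in library 1, where 3 counts stand for 30.1 CPM.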

Other observations

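In the unnamed cluster 38, led by slow-muscle genes, the heart-type lactate dehydrogenase gene ldhba stood at 1250 and 909 CPM, against 283 and 241 CPM in skeletal-muscle-like cells and 231 and 298 CPM in the 24-cell cluster. The AMP deaminase gene ampd3a stood at 169 and 208 CPM there and the pyruvate dehydrogenase kinase gene pdk4 at 152 and 81.6 CPM. In hepatocyte-like cells pklr (545 and 1018 CPM) and gapdh (3712 and 2762 CPM) were among the copies raised, and 7 of 10 gluconeogenesis genes were raised, among them fbp1b (970 and 678 CPM), while fbp2 was at 3.97 and 0 CPM. In neuron-like cells the neuronal enolase gene eno2 stood at 167 and 198 CPM.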
